A study of Mus musculus with 12 samples.

Results

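The genes described here encode the structural proteins of the sarcomere other than the myosin heavy chains. They were taken from the deposited expression table by symbol, through the Entrez identifier that the deposited table of conditioned medium fold changes pairs with each listed symbol, and all 37 listed genes were found among the 21187 genes measured. By place in the sarcomere, 17 belong to the thin filament, 10 to the thick filament and M band, 6 to the Z disc, and 4 (titin, desmin, Xirp1 and Smpx) to none of these alone.

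C2C12 is a mouse myoblast line whose cells fuse into multinucleated myotubes when they differentiate. The cultures were differentiated for 3 days and then left untreated or treated for 4, 8 or 24 h, either with mouse leukemia inhibitory factor (LIF) at 10 ng/ml or with medium conditioned by C26 cells, mouse colon carcinoma cells whose tumors waste the muscle of their host, added at 1 volume in 3. LIF is an interleukin-6 family cytokine that acts through gp130 and STAT3. Each agent had its own untreated arrays at each time, which gave 12 Affymetrix mouse gene 1.0 ST arrays: 1 per agent, arm and time, each hybridised with RNA pooled from 3 wells. No condition was replicated, the cells of the line have no innervation, and the change at one time has no error of its own.

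A sarcomere is built from thin filaments of actin, tropomyosin, troponin and nebulin that slide along thick filaments of myosin. The Z disc, with alpha-actinin at its core, anchors the thin filaments, the M band cross-links the thick filaments, and titin spans from one to the other. Most of these proteins have slow, fast and fetal or cardiac isoforms from separate genes, and developing myotubes express several of them side by side. Loss of these proteins is a hallmark of muscle wasting, in which breakdown of protein and the level of mRNA can each take part.

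Values are log2 signals, and a change is the treated minus the untreated log2 value of the same agent and time. A change of 0.3, which is 1.231-fold, served as a descriptive mark and carries no test. The LIF values were deposited to 1 decimal and those of the conditioned medium to 2, so a LIF change is a multiple of 0.1. Tests come from a limma fit over all 21187 genes, in which the 3 times stand in for repeats: a small p means that a change was alike at 4, 8 and 24 h, not that it recurred in separate cultures.

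Most sarcomere genes had treated and untreated signals close to each other, and 4 of the 8 genes that differed by 0.3 or more belong to the thick filament. Those 4 are among 10 genes of the thick filament and M band. As 34.6% of all genes differed by that much in at least 1 comparison, the count does not set this place apart. Among these 4, Myl3 did so only at 24 h of LIF, where its treated signal was too dim to be told from background. Over both agents and all times, 29 of the 37 genes never reached 0.3 in either direction, as did 65.4% of all genes. Myl2, the slow and ventricular regulatory light chain of myosin, was lower after 24 h, with a change of -1.14 in C26 conditioned medium and -0.6 in LIF. Mybpc1 and Mybpc2, the slow and fast forms of myosin binding protein C, parted at 24 h: Mybpc2 was higher with both agents, by 0.7 with LIF and 0.56 with conditioned medium, and Mybpc1 was lower, with changes of -0.7 and -0.10. Ttn, which encodes titin, was 0.51 higher after 24 h of conditioned medium. The change at 24 h minus the change at 4 h passed the test for Ttn alone, a call that was lost in 3 of 7 other settings of the fit. Of these 7, 1 only loosened the adjusted p threshold to 0.10, where no call can be lost.

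The promoter windows of the 4 genes that carry these differences are shown to set the upstream sequence beside the response. Each window runs from 250 bases before to 50 bases after an annotated start, in RefSeq sequence of GRCm38.p6, 5′ to 3′ on the strand of the gene. Capitals mark the E box CANNTG, the element bound by MyoD and myogenin, found on either strand. Myl2 has a pair of annotated starts.
Myl2 first start, chr5:122092474-122092773, plus strand: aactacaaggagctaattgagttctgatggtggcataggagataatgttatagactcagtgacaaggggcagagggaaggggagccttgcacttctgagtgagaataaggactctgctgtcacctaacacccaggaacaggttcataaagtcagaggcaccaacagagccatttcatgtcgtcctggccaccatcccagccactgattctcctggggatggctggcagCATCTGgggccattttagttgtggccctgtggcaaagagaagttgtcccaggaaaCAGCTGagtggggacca
Myl2 second start, chr5:122092939-122093238, plus strand: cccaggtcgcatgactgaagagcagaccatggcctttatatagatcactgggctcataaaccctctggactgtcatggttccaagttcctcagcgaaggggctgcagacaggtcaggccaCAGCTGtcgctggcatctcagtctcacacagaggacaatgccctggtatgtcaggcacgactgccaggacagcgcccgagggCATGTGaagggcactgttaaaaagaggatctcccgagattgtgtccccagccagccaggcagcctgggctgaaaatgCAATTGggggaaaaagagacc
Mybpc1, chr10:88605103-88605402, minus strand: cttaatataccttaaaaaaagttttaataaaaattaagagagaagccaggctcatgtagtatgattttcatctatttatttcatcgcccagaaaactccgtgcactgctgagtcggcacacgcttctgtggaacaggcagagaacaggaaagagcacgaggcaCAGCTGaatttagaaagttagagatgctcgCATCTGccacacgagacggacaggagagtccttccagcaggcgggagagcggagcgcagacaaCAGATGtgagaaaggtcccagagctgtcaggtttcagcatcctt
Mybpc2, chr7:44524620-44524919, minus strand: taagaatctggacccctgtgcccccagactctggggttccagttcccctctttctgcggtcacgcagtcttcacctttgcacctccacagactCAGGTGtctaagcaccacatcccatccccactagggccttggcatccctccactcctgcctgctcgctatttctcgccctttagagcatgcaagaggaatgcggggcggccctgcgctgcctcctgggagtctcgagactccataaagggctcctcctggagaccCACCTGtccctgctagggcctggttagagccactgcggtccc
Ttn, chr2:76982498-76982797, minus strand: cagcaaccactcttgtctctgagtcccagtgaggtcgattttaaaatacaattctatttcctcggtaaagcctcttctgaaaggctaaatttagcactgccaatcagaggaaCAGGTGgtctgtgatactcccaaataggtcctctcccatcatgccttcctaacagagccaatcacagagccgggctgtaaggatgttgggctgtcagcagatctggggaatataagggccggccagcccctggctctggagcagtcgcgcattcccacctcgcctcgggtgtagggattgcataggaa
The first Myl2 window held 2 E boxes and the second held 3, the Mybpc1 window 3, the Mybpc2 window 2 and the Ttn window 1. Genes that were lower and genes that were higher at 24 h thus both held the element.

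RefSeq windows of this length were at hand for 28 of the 37 genes, 33 windows in all. Motifs were searched on both strands, each by itself, so that matches of different motifs may share bases. An E box was present in 28 of the 33 windows (84.8%), against 72.3% of the 32851 windows of all genes. A STAT site, TTCNNNGAA, was present in 1 of the 33 (3.03%), that of Myoz2, against 8.3% of all windows. The CArG box, the element of serum response factor, was present in 6 windows of 5 genes (18.2% of windows), Acta1, Actc1, Myl3, Ldb3 and Myom1, against 1.63%. The Ldb3 windows overlap, and their CArG matches are the same bases, counted in each window. Those of Tnni1 overlap as well and share E boxes. A MEF2 site was present in the windows of Ttn and Myoz2 (6.06%), against 3.19%, and a TATA box, TATAAA, in 6 (18.2%), against 13.6%. MCAT, the TEAD element CATTCC, was present in 10 windows (30.3%), against 14.7%. These matches are letters in a window and not shown sites of binding.

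The arrays had medians from 5.5 to 6.74 and maxima from 12.2 to 13.19. At 24 h the median was 5.5 against 6.0 earlier in the LIF experiment, and 6.14 against 6.71 to 6.74 in the other. The 24 h maxima were lower than the earlier ones in the LIF experiment and higher in the other, at 13.16 and 13.19 against 12.82 to 12.94. Levels at different times thus do not share a scale, and changes were taken between arrays of one time. The upper end of the background range, which 5% of 1288 olfactory and vomeronasal receptor genes exceed, lay between 4.5 and 5.143. At least 35 of the 37 genes were above it on every array, and 23 or 24 gave signals among the brightest 5% of genes on each array. All 12 myotube markers measured were above background on every array, which fits the label. Of 12 markers of fibroblasts and unfused cells, 9 or 10 were above background, with a mean level of 7.27 to 7.68 on untreated and 7.35 to 7.73 on treated LIF arrays, and 7.99 to 8.35 and 8.18 to 8.41 on those of conditioned medium. All 9 proliferation markers were above background on every array, and at 24 h their median change was -0.4 with LIF and -0.53 with conditioned medium. Markers of leukocytes (2 or 3 of 8), adipocytes (3 of 6), colon carcinoma epithelium (6 or 7 of 10) and cardiac muscle (5 to 7 of 7) were above background in like numbers on treated and untreated arrays. In bulk RNA, fewer cells of a type and less RNA per cell cannot be told apart, and the part of these markers in the sarcomere values was not tested.

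**Figure D1:**
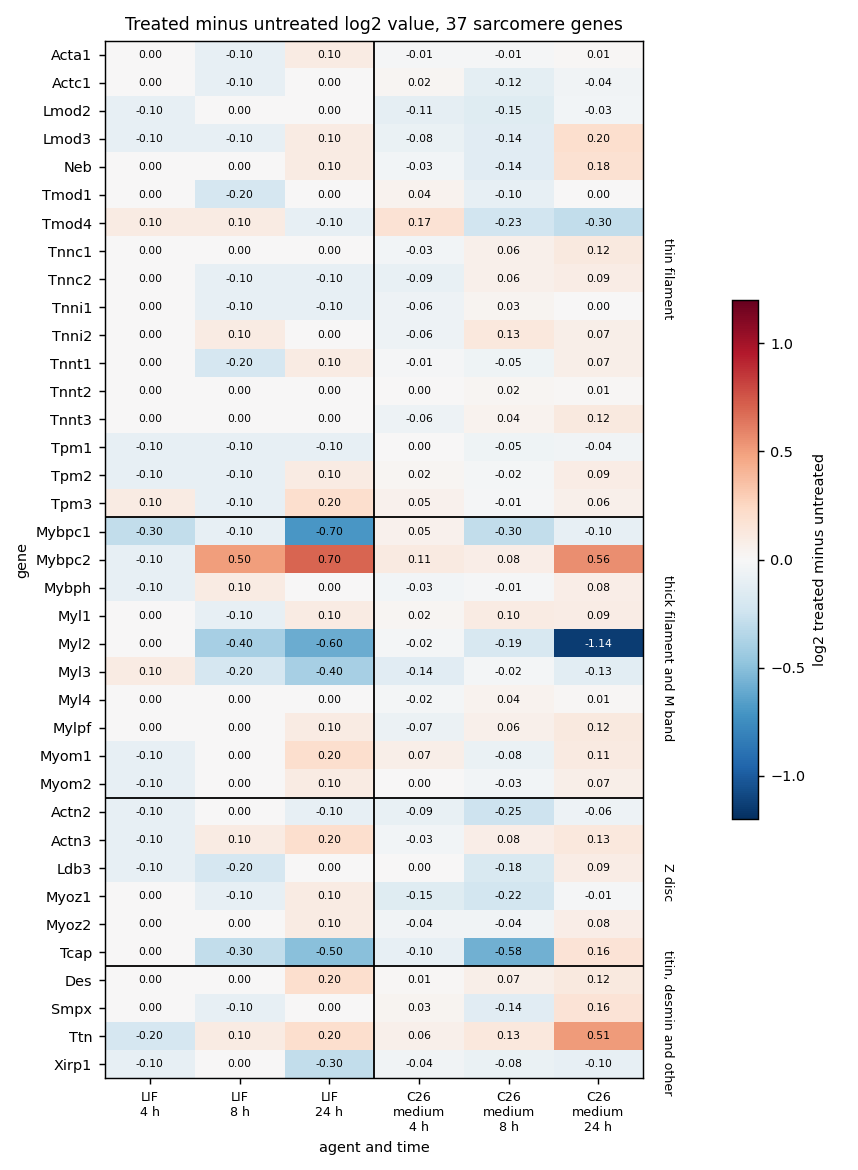
The change (treated minus untreated log2 value) of each of the 37 genes, in rows grouped by place in the sarcomere, for LIF and C26 conditioned medium at 4, 8 and 24 h, in columns. Blue cells are lower and red cells higher in the treated array. The deep cells lie at 24 h in the thick filament rows, at -1.14 for Myl2 with conditioned medium and at -0.7 for Mybpc1 and 0.7 for Mybpc2 with LIF.

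With LIF, 1 of the 37 genes was lower by at least 0.3 at 4 h (3.32% of all genes were) and 0 were higher (5.02%). At 8 h, 2 were lower (3.82%) and 1 was higher (3.3%). At 24 h, 5 were lower (8.22%), namely Mybpc1, Myl2, Myl3, Tcap and Xirp1, and Mybpc2 alone was higher (5.42%). The treated Myl3 signal was in the background range there. With conditioned medium, 0 genes were lower (1.87%) or higher (1.93%) by 0.3 at 4 h, and 2, Mybpc1 and Tcap, were lower at 8 h (2.59%) with 0 higher (3.24%). At 24 h of conditioned medium 2, Myl2 and Tmod4, were lower (6.56%) and 2, Mybpc2 and Ttn, were higher (7.75%). Myl2 was the 1 gene lower by 0.3 with both agents at 24 h (1.6% of all genes were), Mybpc2 the 1 gene higher with both (1.11%), and Tcap the 1 gene lower with both at 8 h (0.321%). At 4 h 0 genes were lower (0.146%) or higher (0.345%) with both, and at 8 h 0 were higher with both (0.67%).

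In all, 8 of the 37 genes (21.6%) passed 0.3 in at least 1 of the 6 comparisons, against 34.6% of all genes. Among genes above background on all arrays the shares were 6 of 35 (17.1%) and 27.6% of 12522. Among the 24 sarcomere genes in the brightest 5% of genes by mean signal the count was 1, Ttn (4.17%), against 12.2% of all 1059 genes that bright. The median change of the 37 genes was 0.00 at each time with LIF and -0.02, -0.03 and 0.07 at 4, 8 and 24 h with conditioned medium, where the median over all genes was 0.00 each time.

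By limma, 0 of the 37 genes passed an adjusted p of 0.05 for the LIF response, as did 0% of all genes, with a smallest adjusted p among the 37 of 0.435. At an unadjusted p of 0.05, 4 of the 37 passed (6.82% of all genes), Tpm1, Mybpc1 and Xirp1 lower and Mybpc2 higher. For conditioned medium 0 of the 37 passed the adjusted threshold (0.217% of all genes, 46 genes), the smallest adjusted p being 0.487, and 3 passed unadjusted (7.48%), Actn2 and Myl2 lower and Ttn higher. The difference between the agents was called for 0 of the 37 (0% of all genes), with 0 passing unadjusted as well (4.48%) and a smallest adjusted p of 0.967. On simulated data this fit called 0.0% of genes changed by 0.3 at all 3 times with either agent, so the absence of calls does not exclude such changes. The 95% interval of the mean change over the times lay within 0.3 of 0 for 32 of the 37 genes with LIF and for 30 with conditioned medium. Among the 32 was Tmod4, whose LIF values lay in the background range and bound nothing. The share over all genes was not taken, so these counts do not set the 37 genes apart from others. The genes whose interval reached further were Mybpc1, Mybpc2, Myl2, Myl3 and Tcap with both agents, and Tmod4 and Ttn with conditioned medium.

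Of the 17 thin filament genes, 1 reached 0.3 in any comparison (34.6% of all genes did, and 12.2% of the brightest 5% of genes). Acta1 and Actc1, the skeletal and cardiac alpha-actins that form its backbone, moved by at most 0.12 in any comparison. Acta1 was at 12.2, 12.2 and 11.6 on the untreated LIF arrays at 4, 8 and 24 h and at 12.2, 12.1 and 11.7 on the treated ones. In the other experiment Acta1 was at 12.57, 12.55 and 12.71 untreated and 12.56, 12.54 and 12.72 treated. Treated and untreated arrays of a time thus lay within 0.1 of each other at all 6 comparisons for this gene.

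Of the 7 troponin genes, which make the calcium switch of the thin filament, none passed 0.3. Tnnt2, the cardiac and fetal troponin T, was among the least moved genes, with LIF changes of 0.0 at all times and conditioned medium changes of 0.00, 0.02 and 0.01. Tnnt3, its fast skeletal counterpart, changed by 0.0 at all times with LIF and by -0.06, 0.04 and 0.12 with conditioned medium. The widest change among the 7 was that of Tnnt1, the slow troponin T, at -0.2 after 8 h of LIF. Changes of the calcium-binding subunits Tnnc1 and Tnnc2 and of the inhibitory subunits Tnni1 and Tnni2 stayed between -0.1 and 0.13. The signals of Tnnt2, Acta1 and Actc1 lay near the maxima of the arrays, and the part of this in their small changes was not tested.

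Tropomyosins lie along the actin filament and gate myosin binding. Tpm1 had a change of -0.1 at each time with LIF, a single step of the rounded values, which gave a mean of -0.10 ± 0.03 (SE) and a limma adjusted p of 0.435. With conditioned medium Tpm1 differed by 0.00, -0.05 and -0.04. The slow tropomyosin Tpm3 was at 10.1, 10.2 and 9.4 on untreated and 10.2, 10.1 and 9.6 on treated LIF arrays, and at 10.83, 10.89 and 10.58 against 10.88, 10.88 and 10.64 with conditioned medium. Tpm3 was thus higher at 24 h with either agent, by 0.2 and 0.06, and its mean LIF change was 0.07 ± 0.05 (limma adjusted p = 0.874).

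Neb encodes nebulin, which runs the length of the thin filament, and the leiomodins Lmod2 and Lmod3 and the tropomodulins Tmod1 and Tmod4 act at its pointed end. Neb was at 11.71, 11.64 and 11.67 on untreated and 11.68, 11.50 and 11.85 on treated arrays of the conditioned medium experiment, so that the sign of its change turned from -0.14 at 8 h to 0.18 at 24 h. Lmod3 turned in the same way, from -0.14 to 0.20. Lmod2 stayed below 0 at all 3 times of conditioned medium, at -0.11, -0.15 and -0.03.

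Tmod4, the skeletal muscle tropomodulin, was the 1 thin filament gene past 0.3. In the conditioned medium experiment it was at 6.76, 7.01 and 6.03 untreated and 6.93, 6.78 and 5.73 treated, which gives changes of 0.17, -0.23 and -0.30. The sign thus differed between 4 h and the later times, and the mean was -0.12 ± 0.10 (limma adjusted p = 0.886). On the LIF arrays Tmod4 did not exceed the background range, at 4.8, 4.8 and 4.5 untreated and 4.9, 4.9 and 4.4 treated, so its LIF changes carry no information on the gene.

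In the thick filament and M band, 4 of 10 genes were past 0.3 after 24 h of LIF, of 6 in all, and 2 after 24 h of conditioned medium, of 4 in all. Over all 21187 genes, 2890 were past 0.3 after 24 h of LIF and 3031 after 24 h of conditioned medium. The counts for this place rest on few genes and were not tested. The 4 with LIF include Myl3, whose treated signal was in the background range. The median of this place was nevertheless close to 0 throughout, between -0.05 and 0.075, with Mybpc2 and Myl2 on opposite sides of it.

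Myl2 binds the neck of the myosin head in slow and ventricular muscle. On the untreated LIF arrays it was at 7.5, 7.7 and 6.9 at 4, 8 and 24 h, and on the treated ones at 7.5, 7.3 and 6.3. In the conditioned medium experiment it was at 7.60, 7.41 and 7.25 untreated and 7.58, 7.22 and 6.11 treated. At 4 h the arms were within 0.02 of each other with both agents, at 8 h the treated array differed by -0.4 (LIF) and -0.19 (conditioned medium), and at 24 h by -0.6 and -1.14, which leaves 0.66 and 0.454 of the untreated signal.

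Because the lowering came late, the mean over times was uneven: -0.33 ± 0.19 with LIF (limma adjusted p = 0.816) and -0.45 ± 0.19 with conditioned medium (adjusted p = 0.586). Without the 24 h arrays the conditioned medium mean was -0.105. The difference between the agents, conditioned medium minus LIF, was -0.12, with a 95% interval from -0.70 to 0.47. The change at 24 h minus that at 4 h, in which the agents serve as repeats, was -0.86 ± 0.17 with an interval from -1.22 to -0.50 and an adjusted p of 0.0527, just outside the threshold.

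Mylpf, the fast counterpart of Myl2, was at 11.4, 11.4 and 10.9 untreated and 11.4, 11.4 and 11.0 treated in the LIF experiment. With conditioned medium it was at 11.56, 11.51 and 11.25 untreated and 11.49, 11.57 and 11.37 treated. The lower Myl2 signal at 24 h was therefore not shared by the fast regulatory light chain, which differed by 0.1 and 0.12 in the other direction. Mylpf signals were brighter than those of Myl2 and nearer the maxima of the arrays, and the part of this in their changes was not tested.

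**Figure D2:**
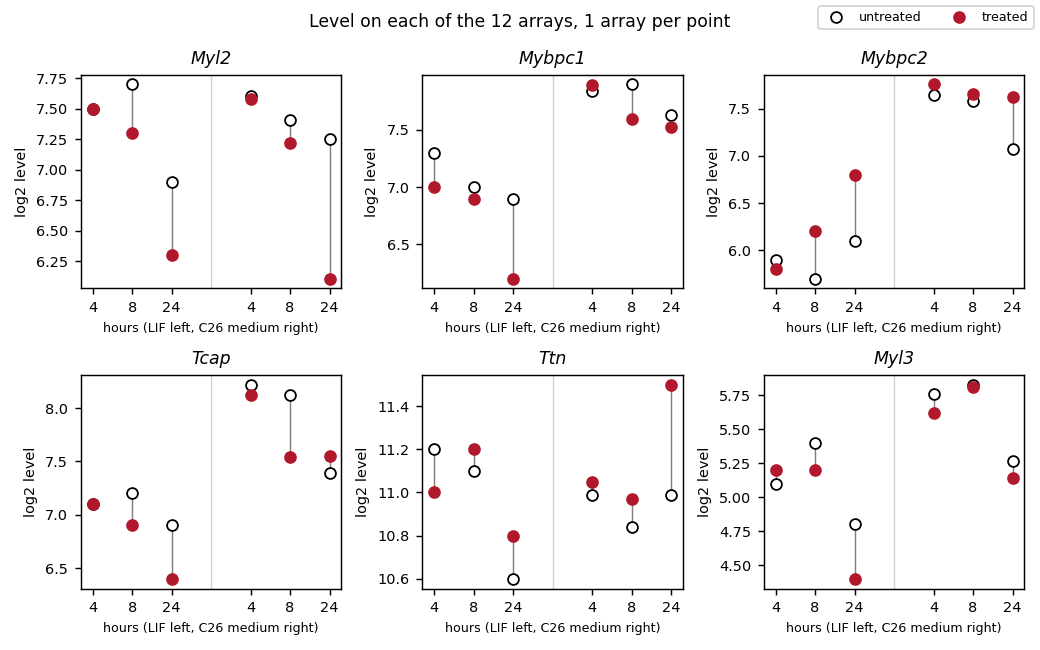
Log2 level of 6 genes on each of the 12 arrays, open circles untreated and filled circles treated, at 4, 8 and 24 h of LIF (left in each panel) and of C26 conditioned medium (right); grey lines join the arms of one time, and each panel has its own axis. For Myl2 the arms coincide at 4 h and differ by -0.6 and -1.14 at 24 h, and for Mybpc2 the treated array is above the untreated one at 24 h with both agents.

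Myosin binding protein C sits on the thick filament and tunes the reach of the myosin heads. Mybpc2, the fast form, was at 5.9, 5.7 and 6.1 on untreated and 5.8, 6.2 and 6.8 on treated LIF arrays. With conditioned medium it was at 7.65, 7.58 and 7.07 untreated and 7.76, 7.66 and 7.63 treated. The treated signal was above the untreated one in 5 of the 6 comparisons, all but 4 h of LIF.

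These levels gave Mybpc2 changes of -0.1, 0.5 and 0.7 with LIF and 0.11, 0.08 and 0.56 with conditioned medium. The fold at 24 h was 1.63 and 1.47. The mean was 0.37 ± 0.14 with LIF (limma adjusted p = 0.623) and 0.25 ± 0.14 with conditioned medium (adjusted p = 0.786). The agents differed by -0.12, with a 95% interval from -0.57 to 0.33. The change at 24 h minus that at 4 h was 0.625 ± 0.16 (adjusted p = 0.168).

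Mybpc1, the slow form, was at 7.3, 7.0 and 6.9 on untreated and 7.0, 6.9 and 6.2 on treated LIF arrays, lower in the treated array at each time. In the conditioned medium experiment it was at 7.84, 7.90 and 7.63 untreated and 7.89, 7.60 and 7.53 treated. The mean LIF change was -0.37 ± 0.11, with a 95% interval from -0.61 to -0.13 and a limma adjusted p of 0.46. That of conditioned medium was -0.12 ± 0.11 (adjusted p = 0.908). The difference between the agents, 0.25, had an interval from -0.09 to 0.59, so the larger LIF change is not shown to be particular to LIF.

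Among the essential light chains, Myl3, the slow and ventricular form, had changes of 0.1, -0.2 and -0.4 with LIF and -0.14, -0.02 and -0.13 with conditioned medium. Its LIF levels were close to the background range, at 5.1, 5.4 and 4.8 untreated and 5.2, 5.2 and 4.4 treated, and the treated 24 h value was inside that range. With conditioned medium Myl3 was at 5.76, 5.83 and 5.27 untreated and 5.62, 5.81 and 5.14 treated. Its mean LIF change was -0.17 ± 0.10 (limma adjusted p = 0.829).

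Myl1, the fast essential light chain, was at 12.2, 12.3 and 11.7 on untreated and 12.2, 12.2 and 11.8 on treated LIF arrays, and at 12.42, 12.37 and 12.34 against 12.44, 12.47 and 12.43 with conditioned medium. It was above its untreated array at all 3 times of conditioned medium, by 0.02, 0.10 and 0.09, and its mean was 0.07 ± 0.04 (limma adjusted p = 0.768). Myl4, the atrial and fetal essential light chain, differed by 0.0 at all times with LIF and by -0.02, 0.04 and 0.01 with conditioned medium. The signals of Myl1 and Myl4 lay near the maxima of the arrays and those of Myl3 near the background range, and the part of this in their changes was not tested.

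Mybph, a smaller relative of myosin binding protein C, and the M band genes Myom1 and Myom2, which cross-link thick filaments, changed by between -0.1 and 0.2. Myom1 was the widest of the 3, at 0.2 after 24 h of LIF.

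In the Z disc, Tcap stood apart. Tcap encodes telethonin, which caps a pair of titin ends, and its LIF levels were 7.1, 7.2 and 6.9 untreated and 7.1, 6.9 and 6.4 treated. In the conditioned medium experiment it was at 8.22, 8.12 and 7.39 untreated and 8.12, 7.54 and 7.55 treated. With LIF the treated array was below the untreated one at the later times, with changes of -0.3 at 8 h and -0.5 at 24 h. With conditioned medium the change was -0.58 at 8 h and 0.16 at 24 h.

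The mean Tcap change was -0.27 ± 0.13 with LIF (limma adjusted p = 0.777) and -0.17 ± 0.13 with conditioned medium (adjusted p = 0.866). The latter rested on the 8 h arrays, since without them it was 0.03.

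Actn2 and Actn3, the alpha-actinins that cross-link actin at the Z disc, differed little. Actn2 was at 9.3, 9.2 and 8.8 on untreated and 9.2, 9.2 and 8.7 on treated LIF arrays, and at 10.66, 10.55 and 10.10 against 10.57, 10.30 and 10.04 with conditioned medium. It was lower in each treated array of conditioned medium, with a mean of -0.13 ± 0.05 and a limma adjusted p of 0.487. Actn3, the fast form, was higher at 24 h by 0.2 and 0.13.

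Myoz1, a calcineurin-binding Z disc protein of fast fibers, was at 5.8, 5.9 and 5.4 on untreated and 5.8, 5.8 and 5.5 on treated LIF arrays. With conditioned medium it was at 6.86, 6.91 and 6.29 untreated and 6.71, 6.69 and 6.28 treated, with a mean change of -0.13 ± 0.07 (limma adjusted p = 0.796). Its slow relative Myoz2 stayed between -0.04 and 0.1. Ldb3, the PDZ and LIM protein also called cypher, had its lowest changes at 8 h, at -0.2 with LIF and -0.18 with conditioned medium.

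As a place, the Z disc had the lowest median of the 4 at 8 h of conditioned medium, at -0.20 over 6 genes, against -0.02 for the thin filament, -0.015 for the thick filament and M band and -0.005 for titin, desmin, Xirp1 and Smpx. At 24 h of conditioned medium its median was 0.085. With LIF the 4 medians lay between -0.1 and 0.1 at every time. No test compares the places, since each rests on few genes from the same arrays.

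**Figure D3:**
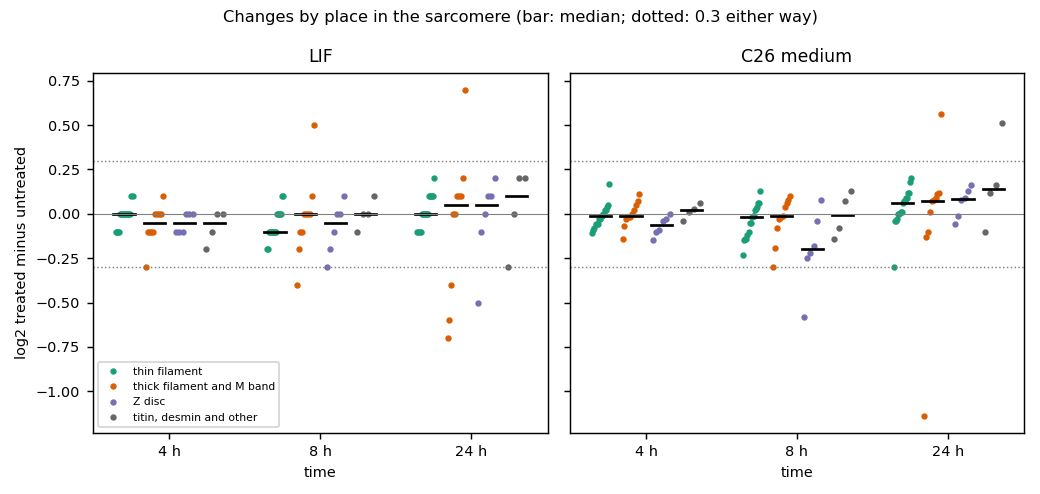
Change of each gene (points) and the median of each place in the sarcomere (bars) at 4, 8 and 24 h of LIF (left) and C26 conditioned medium (right), in log2; dotted lines mark 0.3 in either direction. Thin filament points stay inside the lines except Tmod4 at -0.30, while the thick filament reaches from -1.14 to 0.7.

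Titin is the giant spring that centers the thick filament, and the signal of Ttn was at 11.2, 11.1 and 10.6 on untreated and 11.0, 11.2 and 10.8 on treated LIF arrays. With conditioned medium it was at 10.99, 10.84 and 10.99 untreated and 11.05, 10.97 and 11.50 treated. The change went from -0.2 through 0.1 to 0.2 with LIF and from 0.06 through 0.13 to 0.51 with conditioned medium, later times being higher in both. The mean was 0.03 ± 0.09 with LIF (limma adjusted p = 0.929) and 0.23 ± 0.09 with conditioned medium (adjusted p = 0.528). Without the 24 h arrays the conditioned medium mean was 0.095.

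For Ttn the change at 24 h minus that at 4 h was 0.425 ± 0.075, with a 95% interval from 0.26 to 0.59 and an adjusted p of 0.0391 by limma, the sole call among the 37 genes (0.401% of all genes were called, and 0.118% as higher). This contrast has 2 residual degrees of freedom. The call was lost under quantile normalization (adjusted p = 0.102), without the dimmest 50% of genes (adjusted p = 0.052) and without the variance trend (adjusted p = 0.556), the estimate under the first being 0.37.

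Des encodes desmin, the intermediate filament that ties neighboring Z discs together. It was at 11.9, 11.9 and 11.2 on untreated and 11.9, 11.9 and 11.4 on treated LIF arrays, and at 12.46, 12.43 and 12.58 against 12.47, 12.50 and 12.70 with conditioned medium. Its mean change was 0.07 ± 0.04 with each agent (limma adjusted p = 0.844 and 0.821). Xirp1, an actin-binding repeat protein, was at 8.9, 8.9 and 8.3 on untreated and 8.8, 8.9 and 8.0 on treated LIF arrays. With conditioned medium Xirp1 was at 10.13, 9.94 and 9.76 untreated and 10.09, 9.86 and 9.66 treated, a little lower each time. Its mean was -0.13 ± 0.06 with LIF (adjusted p = 0.705). Smpx, a small protein of muscle costameres, changed by between -0.14 and 0.16.

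Slow, fast and fetal isoforms were next compared within pairs, as the change of one gene minus the change of its partner, which sets no level of one gene against another. Partners could still differ in brightness, as Myl2 and Mylpf did, and the part of this in the differences was not tested. The slow minus fast difference was below 0 at 8 and 24 h of both agents in 5 of the 14 pairs. These were 3 of the thick filament, that of alpha-actinin and, by at most 0.2, that of troponin I. Of these, Myl3 minus Myl1 counts only if its 24 h LIF value is taken, which rests on a signal in the background range. For Myl2 minus Mylpf it was 0.0, -0.4 and -0.7 with LIF and 0.05, -0.25 and -1.26 with conditioned medium. For Mybpc1 minus Mybpc2 it was -0.2, -0.6 and -1.4 with LIF and -0.06, -0.38 and -0.66 with conditioned medium, below 0 in all 6 comparisons. Actn2 minus Actn3 was -0.3 and -0.19 at 24 h. Myl3 minus Myl1 was -0.22 at 24 h of conditioned medium. Beyond its sign in that count, no value is read from it at 24 h of LIF, where the treated Myl3 signal was in the background range.

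Of the thin filament pairs, Tnnc1 minus Tnnc2 lay between 0.0 and 0.1, Tnni1 minus Tnni2 between -0.2 and 0.0 and Tnnt1 minus Tnnt3 between -0.2 and 0.1. Lmod2 minus Lmod3 was -0.23 at 24 h of conditioned medium and Tmod1 minus Tmod4 was 0.30, as wide as the alpha-actinin pair, and the LIF values of Tmod4 were in the background range. Tpm3 minus Tpm1 was 0.3 at 24 h of LIF and 0.10 at 24 h of conditioned medium, and Myoz2 minus Myoz1 in the Z disc was never below 0 as deposited, though it was -0.10 at 24 h of LIF after quantile normalization. Pairs of a fetal or cardiac and an adult isoform were close to 0: Actc1 minus Acta1 lay between -0.11 and 0.03, Tnnt2 minus Tnnt3 between -0.11 and 0.06, and Myl4 minus Myl1 between -0.1 and 0.1. Over the classes, the median at 24 h was -0.05 and 0.03 for the 8 slow genes, 0.1 and 0.09 for the 9 fast genes and 0.0 and 0.01 for the 3 fetal or cardiac genes, with LIF and conditioned medium in turn.

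**Figure D4:**
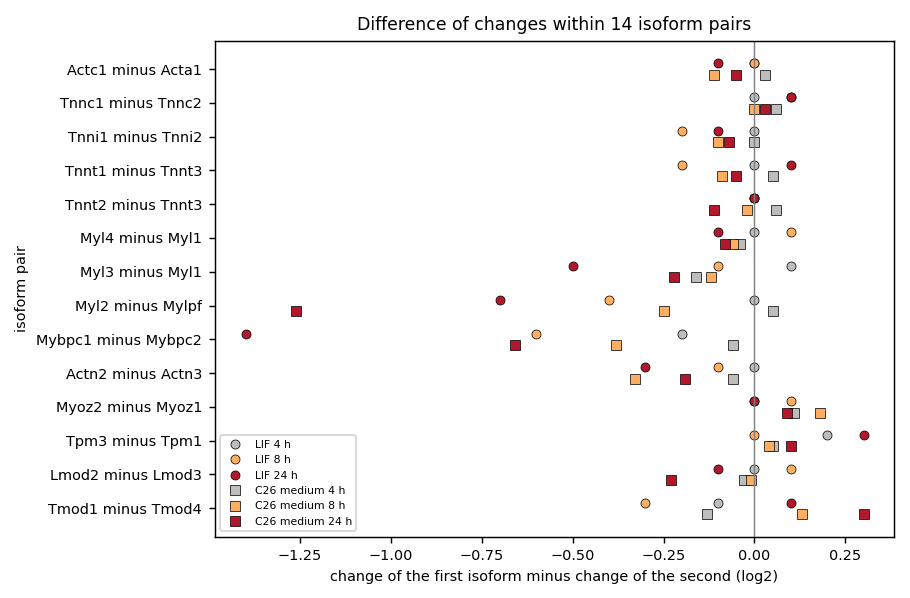
Difference of log2 changes within 14 isoform pairs (first gene minus second) for LIF (circles) and C26 conditioned medium (squares), colored by time. The red 24 h symbols of Mybpc1 minus Mybpc2 (-1.4 and -0.66) and Myl2 minus Mylpf (-0.7 and -1.26) lie to the left of those of the other pairs, and the troponin and actin pairs cluster around 0; Tmod4 at all times and treated Myl3 at 24 h of LIF were in the background range.

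The direction of change over the 37 genes turned between 8 and 24 h with conditioned medium, and with LIF in the values as deposited. With conditioned medium, 21 of the 37 genes were below 0 (49.6% of all genes were) and 12 above 0 (46%) at 4 h. At 8 h 24 were below (47.9%) and 13 above (48.5%), and at 24 h 10 were below (48.6%) and 25 above (46.2%). With LIF, where many values tie from rounding, 14 were below 0 (30.9%) and 3 above (35.9%) at 4 h, 18 below (33.2%) and 6 above (31.6%) at 8 h, and 10 below (42.9%) and 16 above (30.6%) at 24 h. Mybpc1 and Tpm1 were the 2 genes below 0 at all 3 times with LIF (6.15% of all genes were), and 0 were above 0 at all 3 (4.67%). With conditioned medium 6 were below 0 at all 3 times (12%), namely Actn2, Lmod2, Myl2, Myl3, Myoz1 and Xirp1, and 4 above (11.3%), Des, Mybpc2, Myl1 and Ttn. After quantile normalization of the arrays 22 genes were below 0 (51.1% of all genes) and 12 above (48.5%) at 4 h of LIF. At 8 h of LIF these were 30 (55.4%) and 7 (44.3%), and at 24 h 21 (54.5%) and 16 (45%). The direction at 24 h of LIF thus depends on the scaling. At 24 h of conditioned medium 12 were then below 0 (49.2%) and 24 above (50.1%).

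The change at 24 h minus that at 4 h, averaged over the agents, was above 0 for 27 of the 37 genes (46.6% of all genes were) and below 0 for 10 (52%). Under quantile normalization these were 26 genes and 50.6%. Among the 24 sarcomere genes in the brightest 5% the count was 21 (87.5%), against 52.1% of all genes that bright. Differences were small, and the 95% interval lay within 0.3 of 0 for 24 of the 37 genes, a share that was not taken over all genes. At an unadjusted p of 0.05 in limma 9 genes passed (7.44% of all genes), Myl2 lower and Ttn, Mybpc2, Actn3, Lmod3, Des, Mylpf, Tpm2 and Neb higher. Proliferation markers moved in the other direction, with a median change of 0.2 and 0.05 at 4 h and -0.4 and -0.53 at 24 h, LIF and conditioned medium in turn. Fibroblast and unfused cell markers moved too: 9 of 12 were past 0.3 at 24 h of LIF, from -0.5 to 1.0, and 5 of 12 at 24 h of conditioned medium, from -0.32 to 0.98. Of the 12 myotube markers 10 were below 0 at 4 h and 10 above 0 at 24 h of conditioned medium. Their median went from -0.045 to 0.095, and from -0.05 to 0.0 with LIF. The part of these markers in the course of the sarcomere genes was not tested.

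**Figure D5:**
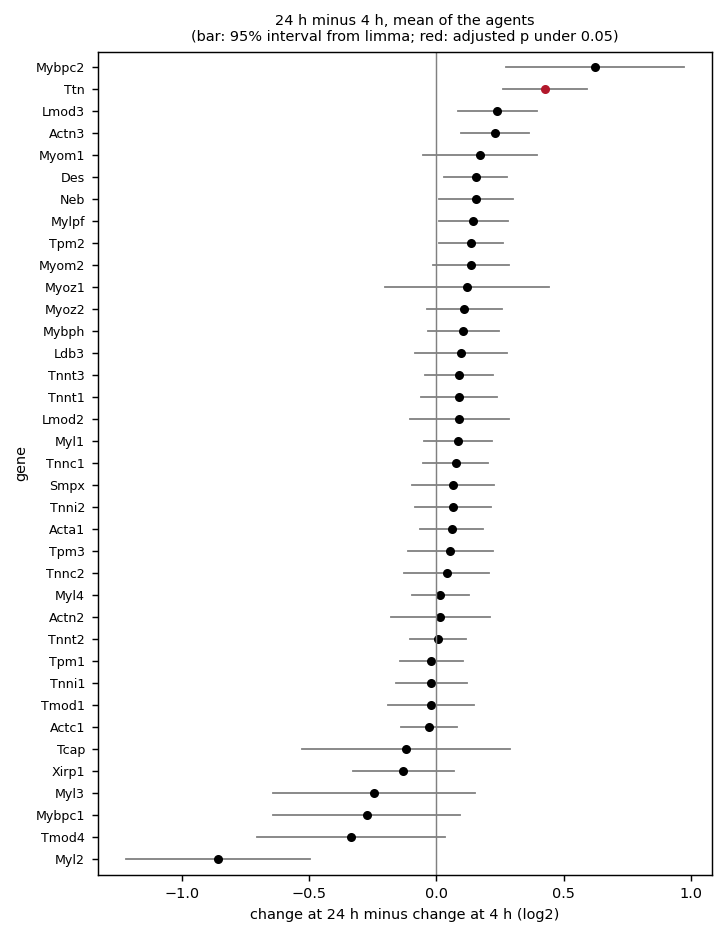
Change at 24 h minus change at 4 h of each of the 37 genes, averaged over LIF and C26 conditioned medium, in log2 with the 95% interval from limma; the red point is below an adjusted p of 0.05. Of the points, 27 lie above 0, Ttn at 0.425 is the one called, and Myl2 at -0.86 lies farthest below.

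The untreated arrays also differed between 4 and 24 h. The median over all genes of 24 h minus 4 h was -0.50 in the LIF experiment and -0.54 in the other, which follows the array medians, and the 37 genes had medians of -0.40 and -0.27. Relative to the median of all genes, 20 of the 37 were higher in the LIF experiment (45.5% of all genes were) and 30 in the conditioned medium experiment (49.6%). In the latter the 24 h arrays had lower medians but higher maxima, and the part of this in the count was not tested. After quantile normalization the medians of the 37 genes were 0.105 (LIF) and 0.0421 (conditioned medium), against 0.0 and 0.0125 for all genes. In the LIF experiment the extremes were Tpm1 at -0.7 and Mybpc2 at 0.2, and in the conditioned medium experiment Tcap at -0.83 and Acta1 at 0.14. These values compare arrays of different times, which do not share a scale, with no replicate.

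A list of 47 further sarcomere genes, chosen as chaperones, Z disc and titin-associated proteins, other filament isoforms and myosin heavy chains, was read beside them, and all 47 were measured. By limma 0 of the 47 passed the adjusted threshold in any contrast, with a smallest adjusted p of 0.136 for LIF and 0.247 for conditioned medium. Unadjusted, 11 were lower and 3 higher with LIF (6.82% of all genes passed in either direction), 10 lower and 1 higher with conditioned medium (7.48%), and 3 lower and 10 higher at 24 h relative to 4 h (7.44%). Their median change was -0.1, -0.1 and 0.0 with LIF and -0.03, -0.13 and 0.04 with conditioned medium, lowest at 8 h with the latter.

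Myot, which encodes the Z disc protein myotilin, had the lowest mean LIF change of the 47, at -0.5 at each time and -0.50 ± 0.09 (limma adjusted p = 0.136). With conditioned medium it changed by -0.08, -0.59 and -0.12. Xirp2, a relative of Xirp1, had a mean LIF change of -0.30, though 1 of its untreated LIF values lay in the background range, and Myh4, a fast myosin heavy chain, of -0.23. Ankrd2, a stretch-responsive ankyrin repeat protein that binds titin, had the highest mean LIF change, with 0.2, 0.3 and 0.5, and 0.02, 0.07 and 0.32 with conditioned medium. Cryab, a small heat shock protein, and Ankrd1, a relative of Ankrd2, followed with means of 0.13 and 0.10.

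For conditioned medium the lowest means of the list were those of Tmod3, the ubiquitous tropomodulin, at -0.27, Myot at -0.26 and Myh8, the perinatal myosin heavy chain, at -0.22. Tmod3 was lower late, at 0.01, -0.22 and -0.60, as was Tmod4 above. The highest were Mybpc3, the cardiac myosin binding protein C, at 0.14 with 1 untreated value in the background range, Ankrd2 at 0.14 and Ankrd23 at 0.13.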

How the data were processed

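C2C12 myotubes were profiled on 12 arrays, 1 per agent, arm and time, placed in groups by sample title. Values are log2 signals of 1 row per Entrez gene, deposited by the authors after RMA per the submitters' processing notes. The authors' separate tables of signed fold changes, a score per the file headers, matched the log2 differences to within rounding in 222 of 222 values of the 37 genes and served as an alternative; 12 further columns of per-sample values were not used. No other normalization or filter was applied. The number of arrays limits the precision.

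The linear model was fitted in limma 3.58.1 (R 4.3.3) with lmFit and trended eBayes to the 12 arrays, with the 6 treated and untreated pairs as blocks and a treatment effect per agent (4 residual degrees of freedom), and again with a time-dependent treatment effect common to both agents (2), from which 24 h minus 4 h was taken. Benjamini-Hochberg adjustment ran over 21187 genes at a threshold of 0.05. The code was tested on simulated data, with 200 genes changed in each run. Of genes changed by 0.3, 0.0% were called with either agent. At 0.6 the share was 67.5% with LIF and 57.5% with conditioned medium, and at 1.0 it was 95.5% and 91.5%. Errors beside changes are standard errors of that fit.

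The genes and lists were chosen with earlier results of these data known. Values on each array are given for the 5 lowest and 3 highest mean changes per agent, and the 3 lowest and 3 highest of the 47 further genes are named. Promoters are RefSeq windows, the gene table being of GRCm38.p6, which matched 20819 identifiers. Alternatives were the scaling, the variance model, a filter on dim genes, the times left out and the thresholds.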

Additional observations from a re-analysis of the deposited data

How the results depend on the processing

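No gene of the 37 was called for LIF, for conditioned medium or for their difference under any alternative. The count for 24 h minus 4 h, 1 as reported, was 2 at an adjusted p of 0.10, with median centring, with robust eBayes and without the dimmest 25% of genes, and 0 without a variance trend, under quantile normalization and without the dimmest 50%. Ttn had adjusted p values of 0.556, 0.102 and 0.052 in the last 3, and Myl2 joined it at 0.0312, 0.0286 and 0.0391 with centring, robust eBayes and the 25% filter; the cause was not tested. The Tcap mean with conditioned medium turned to 0.03 without 8 h. Over all genes the calls for conditioned medium went from 46 to 25 (robust; dimmest 50% left out), 76 (adjusted p of 0.10), 1 (without 4 h) and 0 (no trend, 6 arrays alone, without 8 h or 24 h). Those for LIF went from 0 to 12 (quantile; robust), 8 (dimmest 25% left out) and 28 (0.10), and those for 24 h minus 4 h from 85 to 165 (0.10), 138 (centring), 136 (robust), 26 (quantile) and 0 (no trend).

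Genes past 0.3 with LIF went from 1 to 2, 0 and 0 at 4 h, from 3 to 7, 1 and 0 at 8 h and from 6 to 11 and 0 at 24 h, with marks of 0.2, 0.5 and 1 (24 h: 0.2 and 1). With conditioned medium they went from 2 to 5, 1 and 0 at 8 h, and from 4 to 1 at a mark of 1 at 24 h. The authors' deposited table of fold changes gave 0 with LIF at 4 h and 1 with conditioned medium at 8 h, as did quantile normalization and centring for the latter.

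No array was repeated, RNA of 3 wells was pooled, and the rounding of the LIF values hides changes under 0.1. A change at one time therefore has no error, and the p values measure likeness over times or agents. The treated and untreated pair of each time was a block in every fit, and no fit without it was run.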
